A study of Homo sapiens with 33 samples.

Results

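The response to the glucocorticoid prednisolone was compared between Nalm6 cells in which the gene TLE1 had been targeted and their parental Nalm6 cells, as a difference of responses: treated minus untreated in the knockout, less treated minus untreated in the parental line. The comparison used 12 of the 33 libraries of the series, chosen by their titles, with 3 libraries in each of 4 groups: parental untreated, parental with 5 µM prednisolone for 24 h, knockout untreated, and knockout with the same dose for the same time. Nalm6 is an established line of B-cell precursor acute lymphoblastic leukaemia (ALL). Per the labels the knockout cells are CRISPR/Cas9-edited Nalm6; whether they are 1 clone or a pool, and which guide was used, is not stated there. The labels' treatment protocol names a Wnt agonist for the knockout where the titles and the series text name prednisolone; the titles were followed. Both lines were kept in RPMI-1640 with charcoal-stripped serum, which is depleted of steroid hormones. A negative difference means that a gene's log2 fold change under prednisolone was lower in the knockout than in the parental line.

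Glucocorticoids bind the glucocorticoid receptor, NR3C1, which moves to the nucleus, binds DNA at its own response elements and also meets other factors such as AP-1 and NF-kB at shared sites. In lymphoid leukaemia the response includes induction of feedback genes (TSC22D3, FKBP5, PER1), of the death gene BCL2L11, a fall in growth metabolism and arrest before S phase. TLE1 is a Groucho-type co-repressor: it does not bind DNA itself, and it is brought to genes by partners that include TCF/LEF, RUNX and PAX proteins.

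The targeted gene was read first. TLE1 stood at 30.2, 34.0 and 31.8 CPM (counts scaled to the library's total over genes) in the untreated parental libraries and at 110, 113 and 116 under prednisolone. In the knockout it stood at 25.4, 24.0 and 24.0 untreated and at 54.5, 69.0 and 64.1 treated. TLE1 RNA was thus lower in the knockout in both states without being absent, and every library of the knockout lay below every parental library of the same treatment. Its own response was 1.77 on the log2 scale in the parental line and 1.31 in the knockout, a difference of -0.46 ± 0.10 (standard error; edgeR adjusted p = 0.0136), and the call was lost without parental untreated replicate 1. RNA counts do not show whether the edited transcript gives protein.

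Gene counts per library ran from 28777002 to 61930057, and the untreated parental libraries (49011382 to 61930057) were deeper than the untreated knockout libraries (28777002 to 32697641). All 10 B-lymphoid markers were detected, with a summed level of 1930 to 2490 CPM. Of 12 T-lymphoid markers 8 were at 0 in every group, CD3E among them. The summed level was 10.9 to 25.8 CPM, with GATA3 the highest marker in each group. The 12 myeloid markers summed to 4.01 to 9.43 CPM, with ELANE, S100A8 and S100A9 at 0 in every group. The library labelled knockout untreated replicate 3 stood apart from its group: it had a mitochondrial share of 0.543% in a group that reached 0.789%, 257 CPM of the proliferation gene MKI67 against 411 and 454, and 87.7 CPM of TYMS against 137 and 153. The main counts without it are given beside the results. The series text states 3 independent experiments for the knockout and does not say how the parental prednisolone replicates were made, so p-values measure the spread between these libraries. By their sample numbers the treated parental libraries belong to a later block, with the dexamethasone libraries, than the other groups of the contrast. Whether that block is a separate batch is not stated. Any effect of it would enter every difference of responses and cannot be told apart from a difference between the lines.

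Both lines responded broadly to prednisolone, and the response differed between them in a limited set of genes. In bulk RNA, fewer responding cells and less RNA per cell cannot be told apart. Of 17952 genes tested, 8804 (49.0%) changed in the parental line and 8306 (46.3%) in the knockout, at an edgeR adjusted p under 0.05. The difference of responses was called for 624 genes, 3.48% of those tested; 427 were lower in the knockout (2.38%) and 197 higher (1.10%). With an absolute log2 difference of at least 1, 96 genes were lower (0.535%) and 29 higher (0.162%). The total moved with single libraries: it was 361, 369 and 375 without untreated parental replicate 1, 2 and 3 in turn, and 1852 without untreated knockout replicate 3. Without the latter 1106 were lower, 746 were higher, and 194 had a log2 difference of at least 1 in size.

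**Figure D1:**
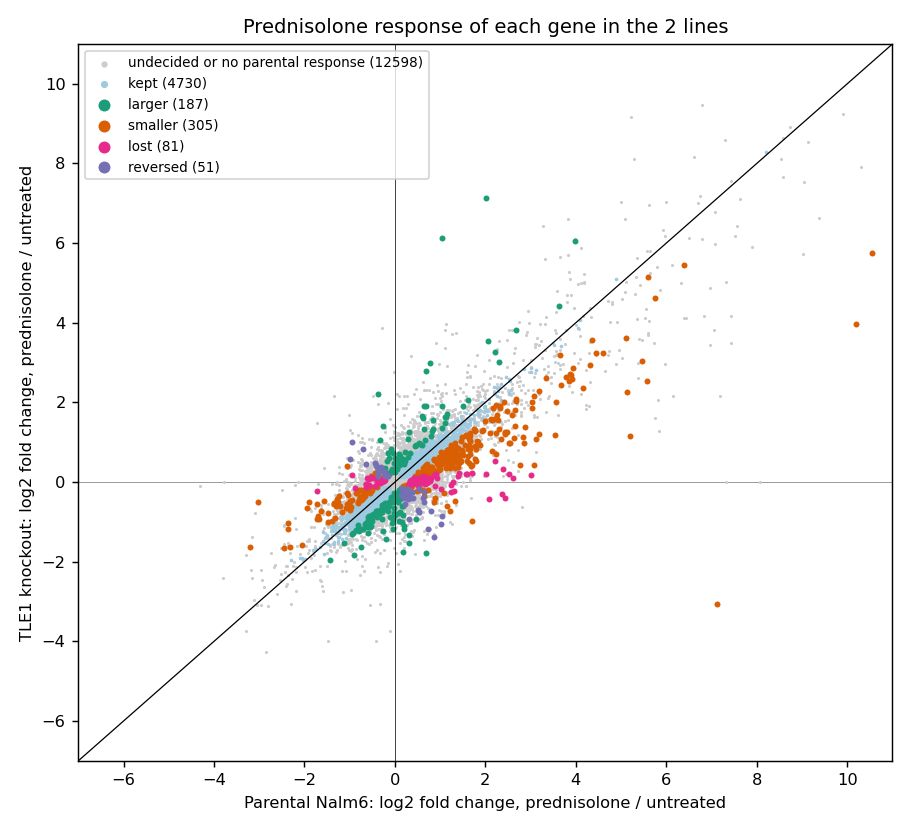
Prednisolone response in the knockout (y axis, log2 fold change) against that in the parental line (x axis, log2 fold change), 1 point per tested gene, coloured by response class, with the line of equal responses. The 4730 kept genes lie along the line, and most of the 305 smaller responses lie below it on the side of rises.

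Each of the 8804 parental responders was placed by its response in the knockout. A response was counted as kept where both lines were called in the same direction, the difference was not called, and its 95% interval lay within 1.5-fold either way. This held for 4730 genes, 53.7% of the parental responders and 26.3% of all genes tested, with 1931 rises and 2799 falls. The difference was called towards a smaller response in 305 genes, 1.70% of those tested (226 rises and 79 falls). A further 81 (0.451%) were lost (59 rises and 22 falls), meaning that the knockout was not called and its log2 change was under 0.25 times the parental one. In 51 (0.284%) the knockout was called in the opposite direction (31 rises and 20 falls). The response was larger in the knockout in 187 genes (1.04%), 86 of which were called in the knockout and not in the parental line. The remaining 3536 (40.2%, or 19.7% of all genes tested) could not be placed at this precision. Without untreated knockout replicate 3 the counts were 608 smaller, 251 lost, 131 reversed and 859 larger. Without single untreated parental libraries they went down to 188 smaller (replicate 1), 52 lost (replicate 2), 29 reversed (replicate 1) and 85 larger (replicate 3). Strong responses were the hardest to place: of 1517 with a parental log2 change of at least 1 in size, 251 (16.5%) were kept, 193 (12.7%) smaller and 1033 (68.1%) undecided.

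The difference of responses can come from the treated level, the untreated level or both. Of the 624 genes, 241 differed between the lines in the treated state alone, 168 in the untreated state alone and 215 in both, in 76 of these with opposite signs. The treated lines differed in 5394 genes overall (30.0%) and the untreated lines in 5030 (28.0%). Among the 316 parental rises that were smaller, lost or reversed, 191 were lower in the treated knockout and 181 were already higher in the untreated knockout. Among 121 such falls, 93 were higher in the treated knockout.

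Responders taken from other libraries gave the general size of the difference. Parental libraries with 100 nM dexamethasone and their own untreated group, none of which enter the prednisolone contrast, defined 1369 risers and 562 fallers with a log2 change of at least 1 in size. The median response of the 1248 risers tested was 1.34 in the parental line and 1.09 in the knockout, with a median difference of -0.25 beside 0.00 over all genes. Of these risers 884 (70.8%) had a negative difference, 180 (14.4%) were called lower and 20 (1.6%) higher; 241 were kept. The 528 fallers tested had medians of -1.0 and -0.91 and a median difference of 0.14, with 36 called higher and 8 lower. Per treated library, the mean riser response against the line's own untreated mean was 1.63, 1.67 and 1.67 in the parental line and 1.27, 1.35 and 1.31 in the knockout. The mean faller response was -1.05, -1.11 and -1.07 against -0.89, -0.95 and -0.87. The 3 knockout libraries lay closer to 0 than the 3 parental libraries on both measures, with no overlap; 3 against 3 allow no exact 2-sided permutation p under 0.1.

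The genes were then grouped in 30 lists by pathway, described by counts and medians beside those over all genes (2.38% called lower, 1.10% called higher, median difference 0.00). For the rises and falls counted in each list, the shares over all genes were 24.2% risen and 24.8% fallen in the parental line. In the knockout they were 22.6% and 23.7%.

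**Figure D2:**
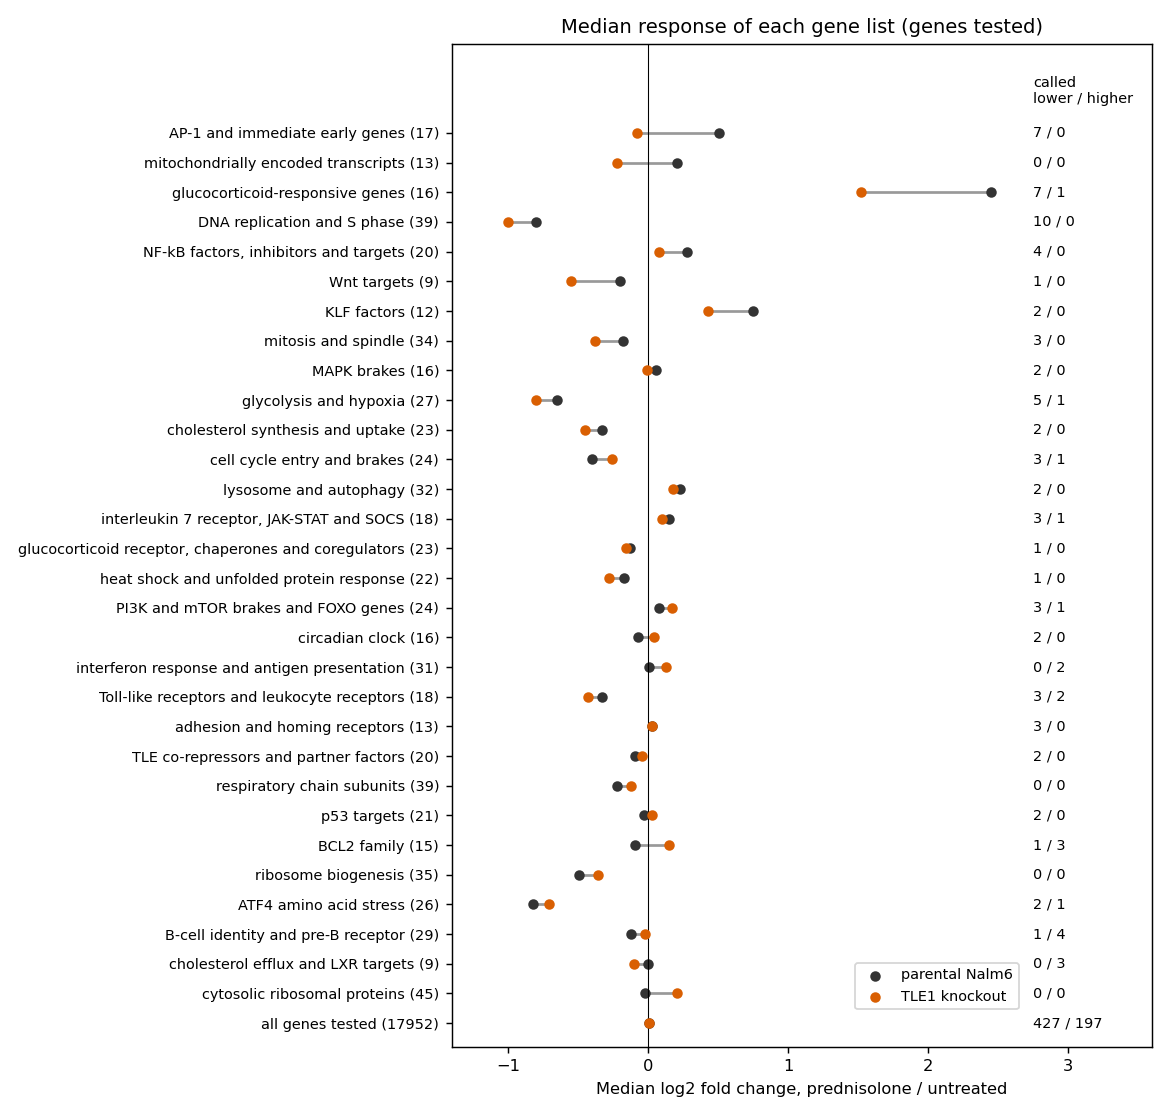
Median log2 fold change under prednisolone (x axis) of each gene list in the parental line (dark) and in the knockout (orange), 1 list per line with its number of genes tested, and at the right the counts called lower and higher. The AP-1 list moves from 0.51 to -0.08, the DNA replication list from -0.80 to -1.0, and the list of ribosome biogenesis genes from -0.49 to -0.36.

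Fewer AP-1 and immediate early genes rose in the knockout than in the parental line. AP-1 is the dimer of FOS and JUN family proteins that growth signals induce within minutes. Of 17 tested members, 10 rose and 3 fell in the parental line, whereas 4 rose and 5 fell in the knockout. The difference was called lower for 7 (41.2%) and higher for none, with 15 of 17 negative and a median of -0.56. The 7 were FOS, FOSB, FOSL2, JUN, BATF, EGR1 and IER5, and each was called in every alternative run. 

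JUN, the main partner in AP-1, stood at 6.39, 6.90 and 7.47 CPM in untreated and 15.1, 17.7 and 17.8 CPM in treated parental libraries, and at 5.42, 5.54 and 6.29 untreated and 4.82, 6.0 and 6.06 treated in the knockout. The treated parental libraries stood above all others, and the knockout groups overlapped. The response was 1.24 in the parental line and -0.08 in the knockout, a log2 difference of -1.32 ± 0.15 (edgeR adjusted p = 8.18e-05).

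FOS, the archetypal immediate early gene, stood at 1.05, 1.29 and 1.20 CPM in untreated and 6.42, 7.38 and 6.38 CPM in treated parental libraries, against 0.799, 0.581 and 0.738 untreated and 1.73, 1.91 and 1.51 treated in the knockout. It rose in both lines, to a lower level in the knockout, by 2.47 and 1.25 on the log2 scale (difference -1.22 ± 0.23, edgeR adjusted p = 0.00624). FOSB, a close FOS relative, stood at 1.11 to 1.45 CPM untreated and 3.94 to 4.38 CPM treated in the parental line. In the knockout it stood at 0.931 to 1.62 CPM untreated and 1.10 to 1.62 CPM treated, so these 2 groups overlapped. Its rise of 1.60 was lost (0.19 in the knockout; difference -1.41 ± 0.27).

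FOSL2, a longer-lived FOS family member, turned direction. It stood at 15.7, 16.0 and 15.3 CPM untreated and 18.5, 19.9 and 22.2 CPM treated in the parental line, and at 8.86, 8.59 and 8.03 untreated and 4.61, 4.62 and 4.35 treated in the knockout. The 4 groups did not overlap: the parental line was above the knockout in each state, and treatment moved the lines apart (0.32 against -0.94; difference -1.27 ± 0.12, edgeR adjusted p = 1.45e-05). EGR1, a zinc finger factor induced through serum response factor, also rose in the parental line (0.50) and fell in the knockout (-0.69), with treated levels of 2.48 to 3.19 CPM against 0.596 to 0.903 CPM. IER5, an immediate early regulator, rose from 24.1 to 26.1 CPM untreated to 47.6 to 54.0 CPM treated in the parental line alone (0.94 against 0.11; difference -0.83 ± 0.12). BATF, a JUN partner in lymphocytes, differed from the others: the untreated knockout (1.32 to 1.68 CPM) was already at the treated parental level (1.39 to 1.52 CPM), and no rise was called in the knockout (difference -1.50 ± 0.29).

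**Figure D3:**
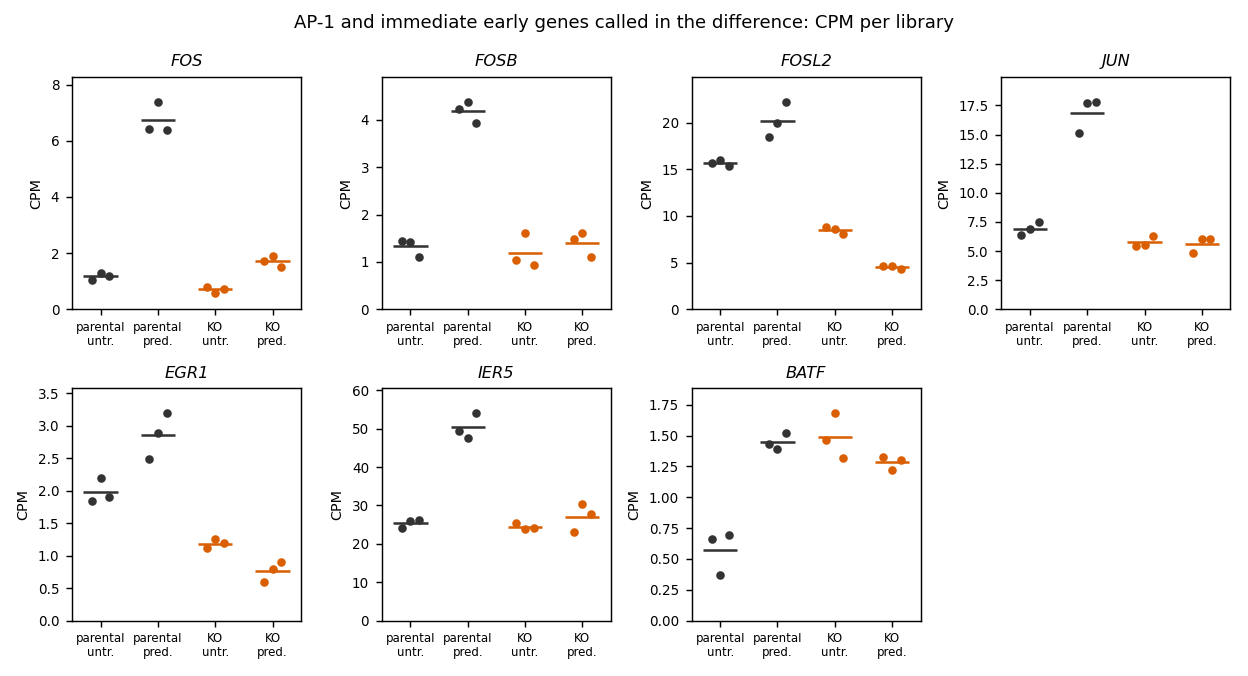
Level of the AP-1 and immediate early genes whose difference was called, 1 panel per gene, in CPM (y axis) in the 3 libraries of each of the 4 groups, with the mean as a bar across. In JUN, FOS, FOSB, FOSL2, EGR1 and IER5 the treated knockout libraries lie below the treated parental ones; in BATF the untreated knockout is high.

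The other 10 members were not called. JUNB had a difference of -0.47 and JUND one of -0.56 (edgeR adjusted p = 0.15 and 0.101), and the orphan receptor gene NR4A2 was kept (0.51 and 0.45). In the treated state 13 of 17 were lower in the knockout, against 14.6% of all genes. Under dexamethasone, in libraries outside the contrast, 11 of 17 were lower in the treated knockout than in treated parental cells (64.7%, against 28.1% of all genes), with a median of -0.41. This comparison was added after the prednisolone results were seen, and 56.6% of genes differed in it in either direction. FOSL2 was lower there by 2.93, EGR1 by 2.87, FOS by 1.85 and JUN by 1.28 on the log2 scale. The dexamethasone set has no untreated knockout libraries, so these are gaps in treated level, not differences of response. FOSL2 was already lower in the untreated knockout of the contrast (-0.86), whereas JUN was not called there (-0.24). The knockout dexamethasone libraries held 25292579 to 29290785 gene counts, against 40643909 to 43228009 in the treated parental ones. Multimapping was 6.97% to 7.55% against 5.49% to 5.72%.

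The RefSeq promoters of the AP-1 list were searched in the 250 bases before the start site, on both strands. A CArG box, the serum response factor motif, was in 2 of 18 promoters (11.1%, EGR1 and EGR2), against 1.16% of 35116 promoters. EGR2 was not called, so 1 of the 7 members called lower held the box. The AP-1 motif TGAGTCA was in none of the 18, against 4.2% of all. The glucocorticoid receptor half-site AGAACA was in 1 of the 18 (FOSB), against 12.4% of all. In the list of glucocorticoid-responsive genes it was in 0 of 28 promoters. The EGR1 promoter is printed because it holds 2 matches, in capitals; it was chosen after the matches were seen, lies at chr5:138465229-138465478 on the plus strand of GRCh38.p14, and is given 5′ to 3′. A match describes letters, not binding.
EGR1: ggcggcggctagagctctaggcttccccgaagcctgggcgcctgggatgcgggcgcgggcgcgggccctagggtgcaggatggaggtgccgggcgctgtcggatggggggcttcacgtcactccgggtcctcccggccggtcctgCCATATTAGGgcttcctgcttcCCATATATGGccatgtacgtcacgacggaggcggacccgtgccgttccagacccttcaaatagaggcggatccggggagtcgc

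Genes used as readouts of the glucocorticoid receptor kept rising in the knockout, several to a lower level. Of 16 tested members of this list, 15 rose in the parental line and 15 in the knockout. The difference was called lower for 7 (43.8%) and higher for 1 (6.25%), and the median response was 2.45 in the parental line and 1.52 in the knockout. Gene by gene the difference was smaller than these medians imply: its median was -0.29, with 10 of 16 negative and 6 positive. Earlier results of these data were known when the list was used, so its direction is not independent evidence. The count of lower members fell to 4 without untreated parental replicate 1 or 2, treated parental replicate 3 or untreated knockout replicate 2. The higher count was 2 without untreated parental replicate 1, treated parental replicate 3 or untreated knockout replicate 3.

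SGK1, a kinase induced directly by the receptor, stood at 2.28, 2.22 and 2.23 CPM untreated and 18.0, 16.8 and 15.8 CPM treated in the parental line, and at 2.54, 2.60 and 2.54 untreated and 5.31, 5.28 and 5.05 treated in the knockout. The untreated knockout lay slightly above the untreated parental line, and the treated knockout lay below every treated parental library. Its log2 rise was 2.86 against 0.99, a difference of -1.87 ± 0.13 (edgeR adjusted p = 7.01e-07).

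TXNIP, which restrains glucose uptake, stood at 75.3 to 77.0 CPM untreated and 592 to 665 CPM treated in the parental line, and at 63.2 to 72.8 untreated and 279 to 300 treated in the knockout. It rose in both lines, with treated levels that did not overlap (3.02 and 2.02; difference -0.99 ± 0.09, edgeR adjusted p = 6.22e-06). BCL2L11 encodes BIM, the death inducer most tied to glucocorticoid killing of ALL cells. It stood at 28.5, 27.6 and 26.7 CPM untreated and 78.2, 78.6 and 72.0 CPM treated in the parental line, against 27.9, 30.9 and 25.0 untreated and 36.3, 39.2 and 45.7 treated in the knockout. Untreated levels overlapped and treated levels did not; the rise was 1.42 against 0.49 (difference -0.92 ± 0.11, edgeR adjusted p = 0.000113). FKBP5, the co-chaperone that lowers receptor affinity, reached 352 to 384 CPM in treated parental and 251 to 272 CPM in treated knockout libraries (difference -0.64 ± 0.10).

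The calls of PER1 (-0.53), DDIT4 (-0.34) and SOCS1 (-1.15) were each lost in 6 or more of 21 alternatives. ISG20, an RNA exonuclease, went the other way: it stood at 6.15 to 6.63 CPM untreated and 76.2 to 83.3 CPM treated in the parental line, and at 4.16 to 4.69 and 96.2 to 98.8 CPM in the knockout. It started lower and ended higher there, with no overlap in either state (3.62 against 4.42; difference 0.81 ± 0.09, edgeR adjusted p = 7.14e-05).

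The receptor's own gene kept its response at a lower level. NR3C1 stood at 240 to 243 CPM untreated and 543 to 570 CPM treated in the parental line, and at 143 to 163 and 369 to 393 CPM in the knockout. The knockout was lower in both states, yet the fold change was kept (1.16 and 1.26; difference 0.10 ± 0.08). TSC22D3, which encodes GILZ, was also lower in the knockout in both states: 19.6 to 23.4 and 329 to 376 CPM in the parental line against 7.03 to 7.87 and 154 to 163 CPM in the knockout. Its log2 rise was 3.96 and 4.37, and the difference of 0.41 ± 0.11 missed the threshold (edgeR adjusted p = 0.0541). The difference was called higher in 9 of 21 alternatives. In the treated state 11 of the 16 were lower in the knockout, against 14.6% of all genes. Under dexamethasone 14 of 16 were lower in the treated knockout, against 28.1% of all genes, again a gap in treated level and not a difference of response. BTG1, an antiproliferative gene, was kept (2.04 and 1.79).

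**Figure D4:**
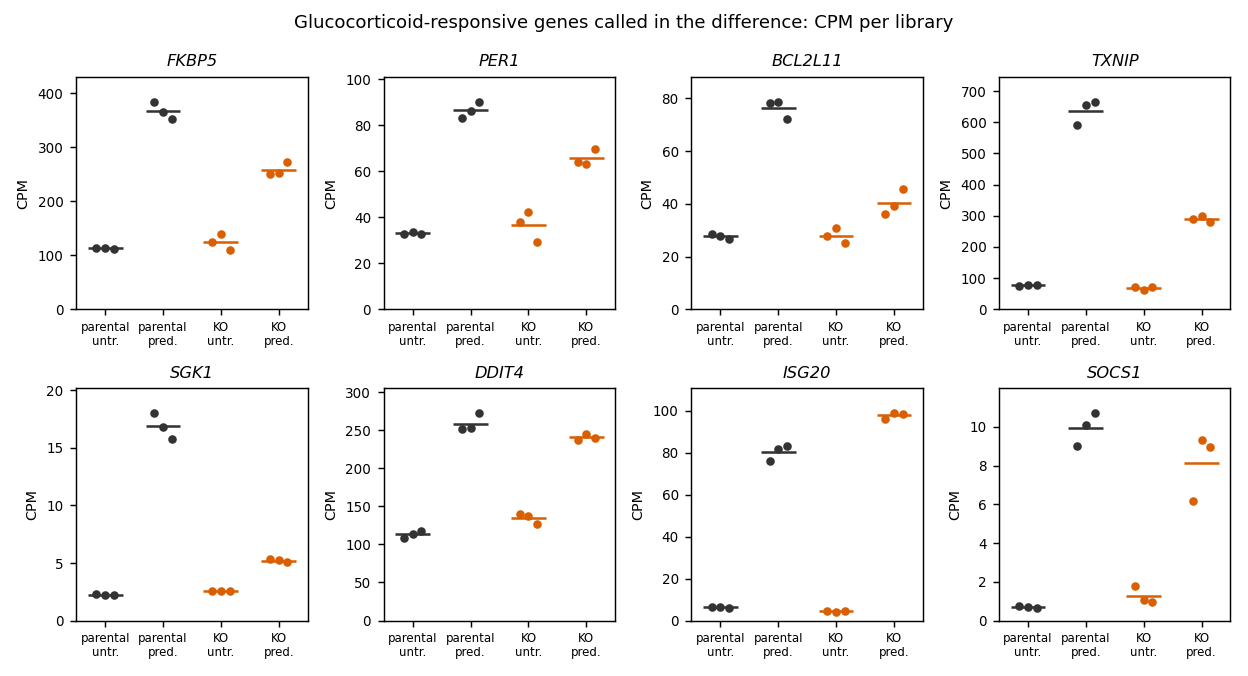
Level of the glucocorticoid-responsive genes whose difference was called, 1 panel per gene, in CPM (y axis) in the 3 libraries of each of the 4 groups, with the mean as a bar across. SGK1 reaches 15.8 to 18.0 CPM in treated parental and 5.05 to 5.31 CPM in treated knockout libraries, whereas ISG20 reaches 76.2 to 83.3 CPM and 96.2 to 98.8 CPM.

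The NF-kB and KLF lists also had lower calls and no higher ones. In the NF-kB list 4 of 20 were lower and none higher (median difference -0.20). NFKBIZ, a nuclear co-regulator of NF-kB, stood at 8.06 to 9.46 CPM untreated and 27.2 to 28.4 CPM treated in the parental line, and at 8.32 to 9.66 and 12.2 to 13.6 CPM in the knockout. Its untreated levels overlapped and its treated levels did not (1.63 against 0.47; difference -1.16 ± 0.11, edgeR adjusted p = 1.49e-05). NFKB2, the p100 precursor, lost its rise (0.61 against -0.02; difference -0.63 ± 0.08). BIRC3, an inhibitor of apoptosis, was again high before treatment in the knockout (1.42 to 1.77 CPM against 0.435 to 0.565 CPM) and overlapped it after treatment (3.63 to 4.80 against 3.80 to 3.97 CPM; difference -1.50 ± 0.23). TNIP1 had a difference of -0.32 whose call was lost in 14 of 21 alternatives. NFKBIA, the classic inhibitor of NF-kB, was kept (1.43 and 1.11), though its difference was called lower in 4 of 21 alternatives.

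Among 12 KLF factors 2 were lower: KLF6 rose by 1.66 and by 0.84 (difference -0.83 ± 0.11), and KLF10 rose by 0.65 in the parental line and fell by 0.26 in the knockout (difference -0.91 ± 0.12). Without untreated knockout replicate 3 there were 4. Of 16 MAPK brakes 2 were lower, SPRY1 (-0.62) and SPRY4 (-1.25), the latter call being lost in 10 alternatives. By response class, 1 of the 2 was a lost rise and the other a larger fall in the knockout. DUSP6 was kept (1.31 and 1.09). NFIL3, a clock and lymphocyte factor, rose by 0.37 in the parental line and fell by 0.24 in the knockout, where it was higher before treatment (33.2 to 35.4 against 21.2 to 21.8 CPM).

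The BCL2 family, which sets the threshold for cell death, had calls in both directions. Of 15 BCL2 family members tested, 1 was lower, BCL2L11, and 3 were higher. BCL2, the survival protein that BIM neutralises, stood at 199, 193 and 186 CPM untreated and 75.5, 76.4 and 75.9 CPM treated in the parental line, and at 171, 178 and 184 untreated and 89.9, 92.4 and 96.2 treated in the knockout. It fell in both lines and remained higher in every treated knockout library than in the treated parental ones (-1.39 and -0.97; difference 0.42 ± 0.07, edgeR adjusted p = 0.00316). HRK, a death inducer, fell less in the knockout (-1.26 and -0.51; difference 0.75 ± 0.11). BIK had a difference of 0.58 ± 0.14, whose call was lost in 12 alternatives. BMF, another death inducer, was kept: it stood at 3.94 to 4.20 and 62.7 to 76.9 CPM in the parental line and at 3.21 to 4.80 and 66.0 to 69.1 CPM in the knockout (4.09 and 4.06). BCL2L1, which encodes the survival protein BCL-XL, was kept as well (0.52 and 0.45). Among 21 p53 targets, FAS (-0.99) and TP53INP1 (-0.44) were lower. TP53INP1 rose strongly in both lines (5.60 and 5.16), and FAS, the death receptor, rose by 0.64 in the parental line with no change called in the knockout (-0.36).

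The 10 largest lower differences covered genes of varied roles, described here with the adhesion and leukocyte receptor lists. CDC42EP3, an effector of the small GTPase CDC42, stood at 0.307, 0.347 and 0.575 CPM untreated and 12.7, 16.1 and 17.9 CPM treated in the parental line, and at 0.903, 1.22 and 1.28 untreated and 1.92, 3.00 and 2.98 treated in the knockout. The knockout started above the parental line and ended below it (5.20 against 1.15; difference -4.05 ± 0.35, edgeR adjusted p = 4.98e-06). NEDD9, a scaffold of integrin signalling, showed the same crossing (4.97 to 6.10 and 49.8 to 55.4 CPM against 11.1 to 13.0 and 26.0 to 31.5 CPM; difference -1.98 ± 0.13, edgeR adjusted p = 4.1e-07). STAB1, a scavenger receptor, reached 10.9 to 12.1 CPM in the parental line and 1.58 to 1.71 CPM in the knockout from similar low levels (difference -2.44 ± 0.38). SYTL2, a vesicle transport gene, lost its rise (2.61 against 0.11; difference -2.51 ± 0.30), as did the tissue factor gene F3 (2.38 against 0.33; difference -2.05 ± 0.30) and AFF2 (2.02 against 0.20; difference -1.81 ± 0.23).

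Leukocyte immunoglobulin-like receptors lie in 1 gene cluster and are similar in sequence, so reads could be split between them. LILRB1 (-2.34), LILRB2 (-2.35) and LILRA2 (-1.79) all rose less in the knockout. LILRA2 stood at 3.40 to 3.69 and 59.6 to 67.9 CPM in the parental line and at 3.58 to 5.87 and 23.5 to 25.7 CPM in the knockout, so only the treated levels were separate in full. The toll and leukocyte receptor list as a whole had 3 of 18 lower and 2 higher, NLRP11 and CD180 (0.72), with a median of 0.01; the higher calls were 1 or 0 in most leave-one-out fits. CD69, a receptor that holds lymphocytes in tissue, rose from 3.03 to 3.46 CPM to 48.4 to 49.8 CPM in the parental line and from 3.39 to 3.92 CPM to 23.2 to 26.4 CPM in the knockout (difference -1.16 ± 0.12, edgeR adjusted p = 4e-05). In the adhesion and homing list 3 of 13 were lower (CD69, ITGA6 and CXCR4) and none higher, with a median of 0.02. The laminin receptor gene ITGA6 was lower (-0.59 ± 0.13), the chemokine receptor gene CXCR4 had a difference of -0.29 whose call was lost in 12 of 21 alternatives, and the fibronectin receptor gene ITGA5 was kept (0.72 and 0.79). PRDM1, the plasma cell repressor that can recruit TLE proteins, rose by 3.93 and 2.87 (difference -1.07 ± 0.22).

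Some of the largest differences rest on very low levels. TACC2 was near the limit of detection in the untreated knockout, where it rose at least 3.81-fold, and its treated level was 0.363 to 0.461 CPM against 5.92 to 7.94 CPM in the parental line. The pseudogene GOLGA6GP, whose reads near-identical copies could share, rose at least 226-fold in the parental line; its call was lost in 5 alternatives. ANKRD30BL (-2.24) and MIR663AHG (-1.92) turned from a rise to a fall, and their treated knockout libraries were widely spread (7.12 to 22.5 CPM and 422 to 1390 CPM).

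The genes with the largest higher differences were mainly falls that were smaller in the knockout. LRRC15, a membrane protein, stood at 8.12 to 8.65 and 2.13 to 2.41 CPM in the parental line and at 5.59 to 6.94 and 3.85 to 4.65 CPM in the knockout, so that treatment reversed the order of the lines (difference 1.30 ± 0.15, edgeR adjusted p = 9.18e-05). KCNMB3 (1.33), GP5 (1.38), PDZD7 (1.08) and EFEMP1 (1.51) were of this kind, the last with its fall lost. GADL1 (1.58), KCP (1.95) and the cyclin gene CCND2 (1.55) fell in the parental line and rose in the knockout; CCND2 stood at only 0.208 to 0.677 CPM in the knockout. NLRP11 (2.53) stood at 0 to 0.347 CPM in the parental line and at 5.19 to 8.32 CPM in the knockout. It was classed as a smaller response, a parental fall, and its difference rests on parental levels near 0 CPM. CLEC18B rose more in the knockout (0.65 against 1.91; difference 1.26 ± 0.20).

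S phase genes fell in both lines, and 9 of 39 fell further in the knockout. The list of DNA replication and S phase genes had 39 tested members: 37 fell in the parental line and 38 in the knockout, with median responses of -0.80 and -1.0. All 39 differences were negative, against 8948 of 17952 over all genes. The difference was called lower for 10 (25.6%), CCNE2 with no fall in the parental line among them, and 28 were kept within 1.5-fold. The count moved with single libraries. It was 2 without untreated parental replicate 1 or treated parental replicate 1, 3 without treated knockout replicate 2, and 4 without untreated parental replicate 2 or 3, untreated knockout replicate 2 or treated knockout replicate 3. It was 5 without treated parental replicate 3. Leaving out untreated knockout replicate 3 or treated knockout replicate 1 gave 15, and DESeq2 called 16.

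GINS2 encodes a subunit of the helicase that opens DNA at replication forks. It stood at 101, 104 and 104 CPM untreated and 52.6, 47.3 and 47.4 CPM treated in the parental line, and at 89.5, 84.2 and 89.4 untreated and 30.2, 30.9 and 31.6 treated in the knockout. The 4 groups did not overlap, and the gap widened with treatment (-1.12 and -1.54; difference -0.42 ± 0.08, edgeR adjusted p = 0.00501). GINS4, of the same complex, went from 80.0 to 83.0 CPM to 58.7 to 59.6 CPM in the parental line and from 73.8 to 78.4 CPM to 41.0 to 42.4 CPM in the knockout (difference -0.39 ± 0.07). The calls of both were made in every alternative.

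E2F1, the factor that activates S phase genes, stood at 281, 297 and 297 CPM untreated and 243, 240 and 244 CPM treated in the parental line, and at 274, 252 and 262 untreated and 157, 162 and 154 treated in the knockout. The untreated knockout lay just below the untreated parental line, and the treated knockout was below every other library. The fall was -0.32 and -0.77 (difference -0.46 ± 0.07, edgeR adjusted p = 0.00124), called in every alternative, and E2F7, a repressor of the same family, followed (-0.57 and -1.03; difference -0.46 ± 0.09). CCNE1, the cyclin of S phase entry, fell from 16.2 to 16.9 CPM to 10.5 to 11.9 CPM in the parental line and from 16.6 to 17.9 CPM to 8.30 to 8.71 CPM in the knockout (difference -0.45 ± 0.10, edgeR adjusted p = 0.0174). CCNE2 fell in the knockout (-0.37), with 0.24 in the parental line not called (difference -0.61 ± 0.15, a call lost in 10 alternatives).

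POLE, the catalytic subunit of the leading-strand polymerase, stood at 503, 513 and 514 CPM untreated and 453, 462 and 425 CPM treated in the parental line, and at 466, 450 and 390 untreated and 299, 311 and 305 treated in the knockout. Treated knockout libraries were the lowest, and the difference was -0.31 ± 0.08 (edgeR adjusted p = 0.0406; lost in 13 alternatives). MCM5, of the replicative helicase ring, had one of -0.28 ± 0.07 (lost in 12). The others called were RRM2 (-0.36), CDC45 (-0.34), CHAF1A (-0.38) and TYMS (-0.87), whose calls were lost in 4 to 10 alternatives. MCM4 and PCNA were kept (-1.09 and -1.41, and -0.96 and -1.18), though MCM4 was called lower in 7 of 21 alternatives. POLA2 stood against the list: it rose in both lines (0.92 and 0.90).

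**Figure D5:**
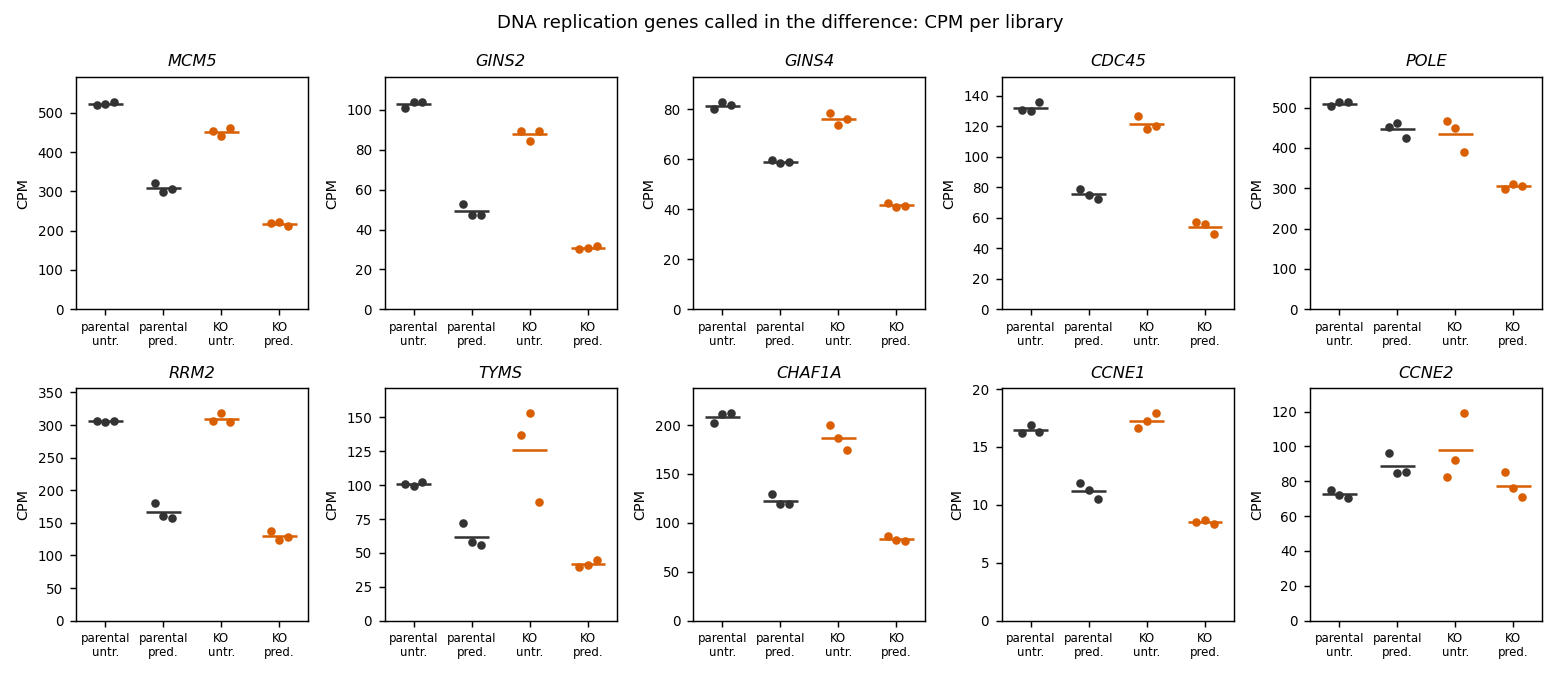
Level of S phase genes whose difference was called, 1 panel per gene, in CPM (y axis) in the 3 libraries of each of the 4 groups, with the mean as a bar across. The treated knockout libraries are the lowest in each panel except CCNE2, for example GINS2 at 30.2 to 31.6 CPM.

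In the prednisolone-treated state 34 of the 39 were lower in the knockout, against 14.6% of all genes, and none higher, with a median of -0.37. Under dexamethasone the treated lines were mixed: 12 were lower (30.8%, against 28.1% of all genes) and 16 higher, with a median of 0.03. GINS2 had a gap of 0.09 there and E2F1 one of 0.17. In treated level the AP-1 list was lower in the knockout under both drugs, as given above. The difference between the drugs was not tested, and dose and compound both differ.

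An E2F site (TTTCCCGC or TTTGGCGC, either strand) lay in the 250 bases before the start in 11 of 42 promoters of the S phase list (26.2%), against 1.93% of 35116 promoters, and in 3 of the 10 of members called lower (GINS2, POLE and TYMS). Promoters of E2F1, GINS2 and POLE are printed to show the site, in capitals, on the strand of the gene; they were chosen after the matches were seen. They lie in GRCh38.p14 on the minus strand, at chr20:33686386-33686635, chr16:85688955-85689204 and chr12:132687343-132687592 in that order, given 5′ to 3′.
E2F1: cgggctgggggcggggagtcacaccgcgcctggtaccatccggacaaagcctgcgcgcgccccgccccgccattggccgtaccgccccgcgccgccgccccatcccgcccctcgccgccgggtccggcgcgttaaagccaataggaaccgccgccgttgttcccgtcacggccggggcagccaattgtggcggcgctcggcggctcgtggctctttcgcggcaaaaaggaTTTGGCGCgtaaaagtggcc
GINS2: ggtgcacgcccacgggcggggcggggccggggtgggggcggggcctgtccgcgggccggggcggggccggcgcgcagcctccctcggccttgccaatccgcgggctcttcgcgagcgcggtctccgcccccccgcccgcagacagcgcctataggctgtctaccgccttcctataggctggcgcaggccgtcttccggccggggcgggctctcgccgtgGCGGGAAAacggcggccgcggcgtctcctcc
POLE: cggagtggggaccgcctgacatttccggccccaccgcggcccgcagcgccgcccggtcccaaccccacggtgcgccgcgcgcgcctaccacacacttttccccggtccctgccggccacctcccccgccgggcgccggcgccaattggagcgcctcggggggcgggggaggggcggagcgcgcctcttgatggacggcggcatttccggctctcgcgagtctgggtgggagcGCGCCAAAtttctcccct

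Mitotic genes had fewer calls, of the same sign. Of 34 tested, 17 fell in the parental line and 27 in the knockout, against 24.8% and 23.7% of all genes. The difference was called lower for 3 (MKI67, CDC25C and BUB1), and 17 were kept, CCNA2 among them (-0.53 and -0.60). MKI67, with its low untreated knockout replicate 3, had a difference of -0.85 whose call was lost in 10 alternatives, though it was -1.06 without that library. CDC25C (-0.45) and BUB1 (-0.29) lost their calls in 13 and 12. The list's count was 5 without untreated knockout replicate 3, and 0 or 1 without any other single library except treated knockout replicate 1. BTG2, an antiproliferative gene, rose less in the knockout (2.68 and 2.04; difference -0.63 ± 0.10), in which it was higher before treatment (50.2 to 57.3 against 32.9 to 41.2 CPM). The cell cycle inhibitor gene CDKN1A was kept, with a fall in both lines (-0.88 and -1.14), though its difference was called lower in 6 of 21 alternatives.

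Genes of growth metabolism mostly kept their fall within 1.5-fold. The difference was positive in 29 of 35 ribosome biogenesis and 20 of 26 ATF4 genes, and negative in 21 of 23 cholesterol synthesis genes. Median differences were 0.1, 0.1 and -0.12. Over all genes 9004 were positive and 8948 negative. In the ribosome biogenesis list 27 of 35 fell in each line and 28 were kept. No difference was called there by edgeR, with 7 higher and 0 lower at an unadjusted p under 0.05; DESeq2 called 1 higher, and 6 were called higher without untreated knockout replicate 3. Of 26 genes of the ATF4 amino acid programme, 25 fell in the parental line and 23 in the knockout, and 20 were kept. PHGDH, the first enzyme of serine synthesis, stood at 246 to 259 and 83.8 to 97.8 CPM in the parental line and at 217 to 260 and 85.0 to 89.4 CPM in the knockout, with overlap in both states (-1.54 and -1.52). CHAC1, a glutathione-degrading enzyme, fell more in the knockout (-0.55 ± 0.12), and TRIB3, a stress pseudokinase, fell less (0.42 ± 0.09). Without untreated knockout replicate 3, 6 members were called higher. Of 23 cholesterol synthesis genes 17 were kept; MVD had a difference of -0.42 and INSIG1 one of -0.32, the latter call being lost in 8 alternatives. Lanosterol synthase, LSS, was kept as a rise (1.25 and 1.47), though its difference was called higher in 2 of 21 alternatives.

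Glycolysis and hypoxia genes fell in both lines from a higher start in the knockout. Of 27 tested, 22 fell in the parental line and 24 in the knockout. In the untreated knockout 20 of the 27 were higher, against 2778 of 17952 over all genes. Of the 27, 15 were kept, 5 were lower (HK2, PFKFB3, PFKFB4, PFKP and BNIP3) and 1 was higher (PFKM, 0.29). The calls of PFKM, PFKP and BNIP3 were lost in 11, 14 and 12 of 21 alternatives. The higher count was 0 in 9 of the 12 fits with a library left out, and 2 without untreated knockout replicate 3. Leaving out any single library other than untreated parental replicate 3, untreated knockout replicate 3 or treated knockout replicate 1 left 2 or 3 lower calls. HK2, which commits glucose to glycolysis, stood at 223, 228 and 229 CPM untreated and 163, 154 and 153 CPM treated in the parental line, and at 350, 352 and 305 untreated and 159, 155 and 159 treated in the knockout. The lines differed before treatment and overlapped after it (-0.59 and -1.12; difference -0.54 ± 0.08, edgeR adjusted p = 0.00101). PFKFB4, a regulator of the pathway, was higher in the knockout before treatment (23.7 to 32.0 against 8.35 to 12 CPM) and less so after it (7.09 to 8.86 against 4.95 to 5.90 CPM; difference -0.93 ± 0.20). LDHA, the lactate enzyme, was kept (-1.0 and -1.19).

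Among cholesterol efflux genes, targets of the LXR receptors, 3 had calls for a larger rise. In this list 1 gene rose and 3 fell in the parental line, while 4 rose and 3 fell in the knockout. The median responses were 0 and -0.1. Of 9 tested, 3 were higher and none lower; 1 was higher without untreated parental replicate 1 or 3, treated parental replicate 1 or treated knockout replicate 3. ABCA1, which exports cholesterol, stood at 50.7 to 52.7 and 115 to 120 CPM in the parental line and at 35.1 to 36.9 and 120 to 123 CPM in the knockout. It began lower there and ended at or above the parental level (1.14 and 1.72; difference 0.58 ± 0.07, edgeR adjusted p = 6.96e-05). ABCG1 (0.35) and MYLIP (0.34) rose in the knockout alone, and their calls were lost in 7 and 6 alternatives. Of the larger rises elsewhere, KCNT1 (2.22 and 3.27), LINC00494 (2.31 and 3.01) and TARS3 (1.62 and 2.06) had the highest knockout responses with ISG20, and in each the untreated knockout was lower than the parental line.

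B-cell identity genes were mixed. Of 29 tested, 4 were higher (CD22, CD38, FCRLA and MME), 1 lower (CD79A) and 9 kept. The higher calls were 2 without untreated parental replicate 1 or 2, treated parental replicate 2, untreated knockout replicate 1 or treated knockout replicate 3. CD22, an inhibitory receptor of B cells, stood at 57.1 to 63.7 and 14.2 to 15.2 CPM in the parental line and at 49.0 to 54.9 and 16.8 to 18.8 CPM in the knockout. It fell in both lines and fell less in the knockout (-2.05 and -1.57; difference 0.48 ± 0.09, edgeR adjusted p = 0.00781). CD79A, the signalling chain of the pre-B and B-cell receptors, rose less (0.72 and 0.30; difference -0.42 ± 0.09), and the surrogate light chain gene VPREB1 was kept (-0.93 and -0.75). PTPN6, a phosphatase that damps that receptor, fell less (-1.01 and -0.53; difference 0.49 ± 0.08). In the interferon and antigen presentation list 16 of 31 were kept, HLA-DMA (1.5 and 1.32) and HLA-DMB (1.67 and 1.56) with the largest parental responses, and IFIT1 (0.70) and OAS2 (0.39) were higher, both calls being lost in 10 or more alternatives. In the list of the interleukin 7 receptor, JAK-STAT and SOCS genes 3 of 18 were lower (SOCS1, CISH and PIM1), 1 was higher (PTPN6) and 8 were kept. CISH, a feedback inhibitor of STAT5 signalling, rose by 0.77 in the parental line and by 0.21 in the knockout (difference -0.56 ± 0.11), and the call of PIM1 (-0.46) was lost in 5 alternatives. The interleukin 7 receptor gene IL7R (-0.84 and -0.71) and the feedback gene SOCS2 (1.97 and 1.89) were kept, as were the TLE partners LEF1 (-1.08 and -0.88) and RUNX1 (-1.30 and -1.07). In the TLE partner list 2 of 20 were lower, TLE1 itself and PRDM1, and 4 were without untreated knockout replicate 3.

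The kept class also held large rises. DPEP1, a dipeptidase, stood at 6.81, 7.45 and 7.12 CPM untreated and 223, 209 and 221 CPM treated in the parental line, and at 5.56, 4.07 and 4.27 untreated and 170, 158 and 156 treated in the knockout. The knockout was lower in both states without overlap, and the log2 rise was 4.89 and 5.09. RAPGEF3 (4.05 and 3.87), SMIM3 (3.67 and 3.42) and STAG3 (3.51 and 3.44) were kept with BMF.

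The calls of ribosomal protein genes depended on the libraries and the fit used. None of 45 cytosolic ribosomal protein genes was called by edgeR (34 higher and 0 lower at an unadjusted p under 0.05; 44 differences positive, median 0.23), although 32 rose in the knockout against 1 in the parental line and 44 were higher in the treated knockout. Over all genes 22.6% rose in the knockout, 24.2% rose in the parental line and 15.4% were higher in the treated knockout. The ribosomal protein genes took 6.85% to 7.15% of counts in treated knockout libraries and 5.41% to 6.22% in the other groups. Without untreated knockout replicate 3, 30 were called higher; without treated parental replicate 3, 3 were. DESeq2 called 5, the fit with no count filter 10 and the fit of all 33 libraries 16. Of 13 mitochondrially encoded transcripts none was called by edgeR (7 lower and 1 higher at an unadjusted p under 0.05; median -0.47), 9 were called lower with no count filter, and 11 without untreated knockout replicate 3, whose mitochondrial share was the lowest of the 12 libraries. What sets that library apart was not tested.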

How the data were processed

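Gene-level read counts were deposited by the authors for 12 libraries of this contrast, and the file layout is that of STAR gene counts; the submitters' processing notes name hg19, Bowtie2 and DESeq2 without roles. Strandedness was read from the files: column 4 held 12.3 to 15.3 times the counts of column 3 and was used. Each file had 62446 gene rows and 4 total rows, which stayed out of library sizes; unmapped reads were 5.00% to 9.40% and reads on no feature 23.9% to 32.7%. Printed CPM are column 4 counts scaled to the library's gene total.

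Differences were fitted with edgeR 4.0.16 in R 4.3.3 (filterByExpr, TMM, quasi-likelihood F test) on the 12 libraries, with Benjamini-Hochberg adjustment over 17952 genes and a threshold of 0.05. Dexamethasone libraries were fitted separately. A simulation with 200 changed genes for the difference of responses, over 17726 genes, recovered 96% at a log2 difference of 1 and 99% at 2, with 17 unchanged genes among 212 called (8.02%). The changed genes were drawn from those with an average log2 CPM of at least 1, so recovery at lower levels was not tested. Libraries of a group shared the same mean per gene, so a library standing apart from its group was not simulated. The alternatives were other size factors, DESeq2 1.42.0, other filters, robust moderation, the replicate block, the unstranded column, equal depth, all 33 libraries and each library left out.

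The members and lists were chosen with earlier results of these data known. Named genes were TLE1, the 10 largest differences each way with an average log2 CPM of at least 1, up to 4 called and 2 kept members a list, and the 5 largest responses a class. EGR1, IER5, FOS, MME, CD180, PFKM, PFKP, CDC45, CHAF1A, GINS4, MCM5, POLE, RRM2, TSC22D3, the other uncalled members given beside their lists and the printed promoters were chosen after their values were seen. Promoter sequences are from RefSeq, GRCh38.p14.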

Additional observations from a re-analysis of the deposited data

Results flagged for a closer look

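Every result here is a difference between the knockout and the parental line under the same contrast, prednisolone minus untreated, that passed the test of the difference itself (edgeR adjusted p under 0.05). The count of such genes was 624. Those named are given with their log2 difference; weighing of causes was not done.

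Among the lower differences of at least 1 in size, the values were GOLGA6GP -4.79, CDC42EP3 -4.05, TACC2 -3.02, SYTL2 -2.51, STAB1 -2.44, LILRB2 -2.35, LILRB1 -2.34, ANKRD30BL -2.24, F3 -2.05, NEDD9 -1.98, MIR663AHG -1.92, SGK1 -1.87, AFF2 -1.81, LILRA2 -1.79, BIRC3 -1.50, BATF -1.50, FOSB -1.41, JUN -1.32, FOSL2 -1.27, SPRY4 -1.25, FOS -1.22, EGR1 -1.19, NFKBIZ -1.16, CD69 -1.16, SOCS1 -1.15, PRDM1 -1.07. The fitted values of GOLGA6GP and TACC2 depend on groups near 0 counts and are no bound. Among the higher values, that of NLRP11 rests on parental levels near 0 CPM.

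Between 0.5 and 1 in size, the lower values were TXNIP -0.99, FAS -0.99, PFKFB4 -0.93, BCL2L11 -0.92, KLF10 -0.91, TYMS -0.87, MKI67 -0.85, IER5 -0.83, KLF6 -0.83, TFEB -0.67, FKBP5 -0.64, BTG2 -0.63, NFKB2 -0.63, SPRY1 -0.62, NFIL3 -0.61, CCNE2 -0.61, ITGA6 -0.59, CISH -0.56, CHAC1 -0.55, HK2 -0.54, PER1 -0.53.

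The smaller lower values were E2F7 -0.46, PIM1 -0.46, TLE1 -0.46, E2F1 -0.46, CDC25C -0.45, CCNE1 -0.45, TP53INP1 -0.44, PFKFB3 -0.44, CD79A -0.42, MVD -0.42, BNIP3 -0.42, GINS2 -0.42, MCOLN1 -0.41, GINS4 -0.39, CHAF1A -0.38, RRM2 -0.36, DDIT4 -0.34, CDC45 -0.34, MANF -0.33, TNIP1 -0.32, INSIG1 -0.32, PFKP -0.31, POLE -0.31, BUB1 -0.29, CXCR4 -0.29, MCM5 -0.28.

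The higher values were NLRP11 2.53, KCP 1.95, GADL1 1.58, CCND2 1.55, EFEMP1 1.51, GP5 1.38, KCNMB3 1.33, LRRC15 1.30, CLEC18B 1.26, PDZD7 1.08, KCNT1 1.06, ISG20 0.81, HRK 0.75, CD180 0.72, LINC00494 0.70, IFIT1 0.70, BIK 0.58, ABCA1 0.58, FCRLA 0.55, PTPN6 0.49, CD22 0.48, CD38 0.46, TARS3 0.44, BCL2 0.42, TRIB3 0.42, OAS2 0.39, MME 0.37, ABCG1 0.35, MYLIP 0.34, PFKM 0.29.

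The calls of 34 of these genes were lost in 4 or more of 21 alternatives (20 for CCND2, NLRP11 and GOLGA6GP), the number of alternatives being given in brackets: CCND2 (4), CHAF1A (4), NLRP11 (4), GOLGA6GP (5), PIM1 (5), CD38 (6), MYLIP (6), PER1 (6), TYMS (6), ABCG1 (7), DDIT4 (8), FCRLA (8), INSIG1 (8), MANF (8), CD180 (9), RRM2 (9), SOCS1 (9), CCNE2 (10), CDC45 (10), MKI67 (10), OAS2 (10), SPRY4 (10), IFIT1 (11), PFKM (11), BIK (12), BNIP3 (12), BUB1 (12), CXCR4 (12), MCM5 (12), CDC25C (13), MCOLN1 (13), POLE (13), PFKP (14) and TNIP1 (14).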

How the results depend on the processing

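Of 159 named genes 103 were called, and 58 of these were called in every alternative that had a value for them. Another 11 lost the call in 1 to 3 alternatives and 34 in 4 or more, and none of the 103 reversed. Of the 21 alternatives, 20 had a value for KCP, STAB1, NLRP11, CCND2, GOLGA6GP and TACC2. Leaving out 1 library at a time gave 361 to 1852 genes called, 251 to 1106 lower, 102 to 746 higher and 96 to 194 with an absolute log2 difference of at least 1. The classes ranged over 188 to 608 smaller, 52 to 251 lost, 29 to 131 reversed, 85 to 859 larger and 4238 to 4830 kept, and the responses over 7706 to 9497 genes (parental) and 7424 to 8452 (knockout). The highest of these 4 counts came without untreated knockout replicate 3. The lowest came without untreated parental replicate 1 (all called and lower), untreated parental replicate 3 (higher) and untreated knockout replicate 1 (log2 of at least 1). The median difference was -0.29 to -0.23 for dexamethasone-defined risers and 0.10 to 0.15 for fallers. DESeq2 called 313 higher and put 317 in the larger class. With no count filter 981 were called (675 lower, 306 higher, 194 at a log2 of at least 1) and 388 were larger. The unstranded column gave 125 higher. All 33 libraries in 1 fit gave 1277 called (733 lower, 544 higher), 550 smaller, 172 lost and 475 larger. The risers' median was -0.42 with responders at a log2 of at least 2 and -0.37 with responders from the parental prednisolone libraries, which gave 0.29 for fallers; the latter libraries are in the contrast. With libraries thinned to equal depth 522 were called, 496 of them among the 624. Where a count moved, the cause was not tested. Replicate numbers were not shown to pair libraries: over 18 pairs the correlation of deviations was -0.11 to 0.18, with 3 above 0.1, and 6 of 12 libraries correlated best with their own number. The fit with the replicate block called 538, of which 518 were among the 624 (373 lower, 165 higher). TACC2 and GOLGA6GP had a group at or under 3 counts, so only bounds of their rises are given.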
